A study of Bos taurus with 4 samples.

Results

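The pluripotency factors of the inner cell mass were followed as 10 genes on a bovine embryo array: POU5F1, NANOG, SOX2, SALL4, KLF4, LIN28A, LIN28B, DPPA3, DPPA4 and ESRRB. They were found by the gene symbol that the platform annotation gives to each probe. These are 10 of 15216 genes with a symbol, and 12 probes of 43794, with 2 probes each for DPPA3 and DPPA4 and 1 for every other gene. LIN28A is written LIN28 in that annotation and was matched through its synonym in the RefSeq gene table.

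The samples were whole bovine blastocysts made by in vitro maturation, fertilisation and culture from slaughterhouse ovaries. Embryos of one group were sired with semen taken when the bulls were 16 months old, and embryos of the other with semen taken at 12 months. The series names 4 bulls, each sampled at both ages. Each of 4 arrays carried RNA of both groups, with the 16-month RNA in Cy3 and the 12-month RNA in Cy5 on arrays 1 and 2, and the dyes exchanged on arrays 3 and 4. The labels call the arrays biological replicates but tie no bull to an array, so the p-values measure the spread between these arrays. A ratio below is the log2 ratio of 12 over 16 months, so that a positive value is brighter with 12-month semen and a negative one brighter with 16-month semen.

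The blastocyst is the stage at which the embryo first holds separate lineages. Its inner cell mass gives rise to the epiblast, the source of the body, and its outer trophectoderm to the placenta. Pluripotency, the capacity to form all body tissues, rests on transcription factors that bind each other's genes, with POU5F1 (OCT4), SOX2 and NANOG at the centre. Whole blastocysts mix the inner cell mass with a larger trophectoderm, so for every gene below fewer expressing cells and less RNA per cell cannot be told apart.

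Most marker genes of the tissue read above background, as most genes did. Of 16 trophectoderm markers with a tested probe, 14 were above the negative control level in all 8 channel signals (4 arrays with 2 dyes), and of 14 primitive endoderm markers 13 were. So were 8826 of all 11963 tested genes. Of 14 cumulus and granulosa cell markers 6 had a probe that passed the brightness filter and was measured on all 4 arrays. So did 9 of 14 sperm and spermatid markers, and 11963 of all 15216 genes with a symbol. These counts do not tell which cell types were present. Over the 4 arrays, 69.5% to 72.3% of all probes exceeded the negative control level in the Cy5 channel, as did 62.7% to 66.6% in the Cy3 channel.

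All 12 probes were bright enough to be tested. The negative control level was set for each array and channel at the 95th percentile of its 153 negative controls, after local background was subtracted. Of the 12 probes, 11 exceeded it in all 8 signals, beside 19928 of the 30986 tested probes. The POU5F1 probe read 12.6 to 38.3 times this level with 16-month semen and 9.78 to 48.5 times with 12-month semen. KLF4 read 33.9 to 119.6 times this level with 16-month semen and 41.2 to 105.0 times with 12-month semen, so both genes were far above background on every array. The brighter DPPA3 probe read 34.0 to 109.0 times with 16-month semen and 38.0 to 80.9 times with 12-month semen. NANOG read 2.97 to 36.2 times with 16-month semen and 2.11 to 25.9 times with 12-month semen, a wide span within each age. The remaining probes were close to background. SOX2 read 1.37 to 3.83 times the level with 16-month semen and 1.22 to 3.43 times with 12-month semen, and ESRRB 2.65 to 3.29 times with 16-month and 2.04 to 4.29 times with 12-month semen. LIN28B read 1.17 to 2.52 times with 16-month semen and 1.34 to 1.92 times with 12-month semen, and the brighter DPPA4 probe 1.02 to 1.94 times with 16-month and 1.12 to 1.44 times with 12-month semen. The dimmer DPPA4 probe was above the level on 2 of 4 arrays with 16-month semen and on 4 of 4 with 12-month semen. The 2 arrays on which it missed were arrays 1 and 2, where it read 0.861 and 0.976 times the level of the Cy3 channel.

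**Figure D1:**
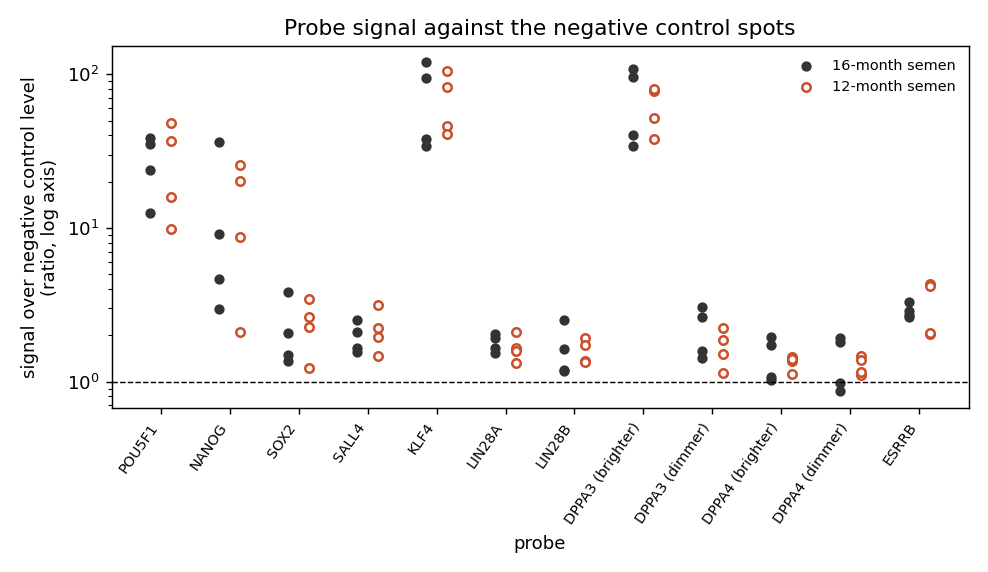
Background-subtracted signal of each of the 12 probes divided by the negative control level of the same array and channel, on a log axis, with 1 point per array and age (16-month semen filled and left, 12-month semen open and right). POU5F1, KLF4 and the brighter DPPA3 probe stay at or above 9.78 times the dashed level, and 2 of the 16-month points of the dimmer DPPA4 probe fall below it.

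None of the 12 probes passed the test between the ages. In limma, with a term for the dye and Benjamini-Hochberg adjustment over all 30986 tested probes, 0 of 12 were called at an adjusted p of 0.05, and 0% of all tested probes were. An unadjusted p under 0.05 was found for 1 of 12, SOX2, beside 5.81% of all tested probes. The adjusted p of the 12 ran from 0.821 to 0.962. By mean ratio 6 probes were above 0 and 6 below, beside 51.1% above 0 over all probes measured on every array. No probe kept 1 sign on all 4 arrays (0 of 12), which 10.4% of those probes did. On at least 3 arrays the 12-month signal was the lower one for 2 of 12 (29.3% of those probes) and the higher one for 3 of 12 (30.7%).

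The precision of 4 arrays bounds what could be seen. For 10 of 12 probes the 95% confidence interval of the age ratio lay within 1.5-fold in both directions, beside 94.3% of all tested probes. The exceptions were POU5F1, whose interval ran from 0.629-fold to 1.14-fold for 12 over 16 months, and NANOG, from 0.863-fold to 1.64-fold. Among the 10, KLF4 and the brighter DPPA3 probe read at least 33.9 times the negative control level, and the others 0.861 to 4.29 times. In such dim probes background and the offset added to every signal make up more of the level. Their narrow intervals therefore bound the measured ratio, and do not bound the difference in RNA. The half-width of the interval had a median of 0.26 on the log2 scale over the 12 probes and 0.23 over all tested probes. An exact sign-flip permutation test (two-sided) cannot go below 0.125 with 4 arrays, and it gave 0.25 to 0.875 for the 12 probes.

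**Figure D2:**
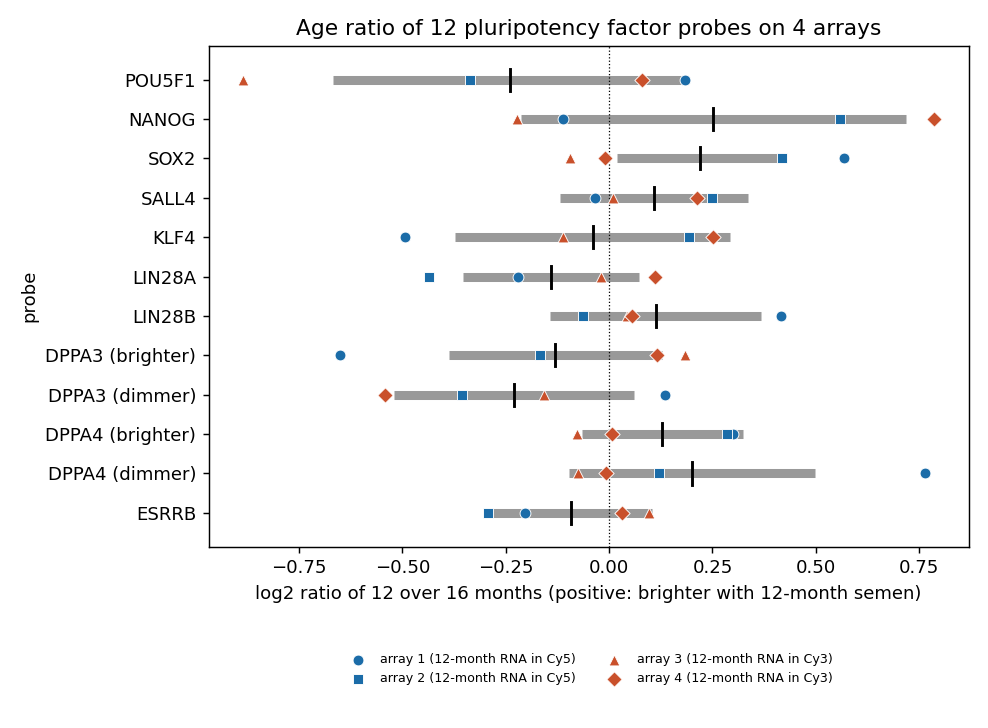
Log2 ratio of 12 over 16 months for each probe (rows) on arrays 1 to 4 (points, coloured by dye orientation), with the mean as a vertical bar and its 95% confidence interval from limma in grey. The arrays fall on both sides of 0 for every probe, and the interval excludes 0 for SOX2 alone, at 0.019 to 0.42.

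POU5F1 encodes OCT4, the POU-domain factor that cattle embryos need to form a normal epiblast. Its normalised log2 levels on arrays 1 to 4 were 11.37, 12.58, 11.86 and 11.43 with 16-month semen, and 11.56, 12.24, 10.98 and 11.51 with 12-month semen. Both ages were highest on array 2, and the ranges overlapped. Ratios of 12 over 16 months were 0.18, -0.34, -0.88 and 0.079, a mean of -0.24 ± 0.49 (SD, n = 4; adjusted p = 0.834 in limma). Array 3 carried this value, since without it the estimate was 0.0014. With median centring in place of loess the estimate was -0.67 (adjusted p = 0.121 in limma), where the median of all tested probes stood at -0.14.

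SOX2, an HMG-box factor that binds DNA together with OCT4, gave the smallest p of the 12 probes. Its log2 levels were 8.08, 8.02, 8.08 and 8.59 with 16-month semen, and 8.65, 8.43, 7.99 and 8.58 with 12-month semen. The 12-month level was the higher one on arrays 1 and 2, and both ages were nearly level on arrays 3 and 4. On arrays 1 to 4 the ratios of 12 over 16 months were 0.57, 0.42, -0.095 and -0.0087, a mean of 0.22 ± 0.32 (SD, n = 4), with an unadjusted p of 0.0366 and an adjusted p of 0.821 in limma. The 95% confidence interval was 0.019 to 0.42, from a fit that has a dye term. The dye effect was 0.27 for Cy5 over Cy3 (adjusted p = 0.387). The authors' deposited table, turned the same way, gave SOX2 0.48, 0.33, -0.30 and 0.0095, with a mean of 0.13. The estimate also fell short of the main one with mean pixel intensities (0.12) and scaling between arrays (0.12). With median centring it was 0.037, where the median of all tested probes stood at -0.14.

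NANOG is a homeobox factor that marks the epiblast as it separates from the primitive endoderm. Its log2 levels were 10.90, 9.33, 9.03 and 11.46 with 16-month semen, and 10.78, 9.89, 8.80 and 12.25 with 12-month semen. At both ages array 4 was highest and array 3 lowest, and the ages overlapped over most of their range. Its ratios of 12 over 16 months were -0.11, 0.56, -0.22 and 0.79, a mean of 0.25 ± 0.50 (SD, n = 4; adjusted p = 0.835 in limma). Without array 4 the estimate was -7.64e-06 and without array 2 it was 0.084, so arrays 2 and 4 carried the value. With median centring in place of loess the sign turned, at -0.13, where the median of all tested probes stood at -0.14.

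The arrays differed far more in NANOG than the ages did. The background-subtracted signals of the probe were 2459, 786, 443 and 2386 with 16-month semen, and 1263, 737, 476 and 5811 with 12-month semen, on scales that differ between the dyes. After normalisation the highest array exceeded the lowest 5.41-fold with 16-month semen and 10.9-fold with 12-month semen, and 7.68-fold with both ages averaged. The SD of that averaged log2 level over arrays was 1.30, and 183 of 30388 tested probes, or 0.602%, had an SD at least as large. The median SD of all these probes was 0.15. Without array 3 the span was 4.75-fold and without array 4 it was 3.80-fold. These values are a description with no test, and the RNAs of both ages bind the same spot on an array. The share of probes with an SD at least that of NANOG was 0.958% without the quantile step that aligns brightness between arrays. Leaving out arrays 1 to 4 in turn gave shares of 0.316%, 0.0592%, 0.921% and 1.77%.

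Other bright probes spanned less between arrays, with KLF4 at 1.61-fold and the brighter DPPA3 probe at 1.64-fold, both ages averaged. LIN28A spanned 1.13-fold, but it read 1.33 to 2.10 times the negative control level, where the offset of 50 added to every signal makes up more of the level. POU5F1 spanned 1.99-fold with an SD of 0.48, which 5.75% of probes reached, but this place depended on the processing. It became 65.0% without the quantile step and 96.2% without array 2. DPPA3 and NANOG are neighbours in the RefSeq annotation of assembly ARS-UCD2.0, with 0 protein-coding genes between them. Their levels ordered the arrays differently, with the brighter DPPA3 probe at 12.78, 13.01, 13.49 and 12.85 on arrays 1 to 4 and NANOG at 10.84, 9.61, 8.92 and 11.86.

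**Figure D3:**
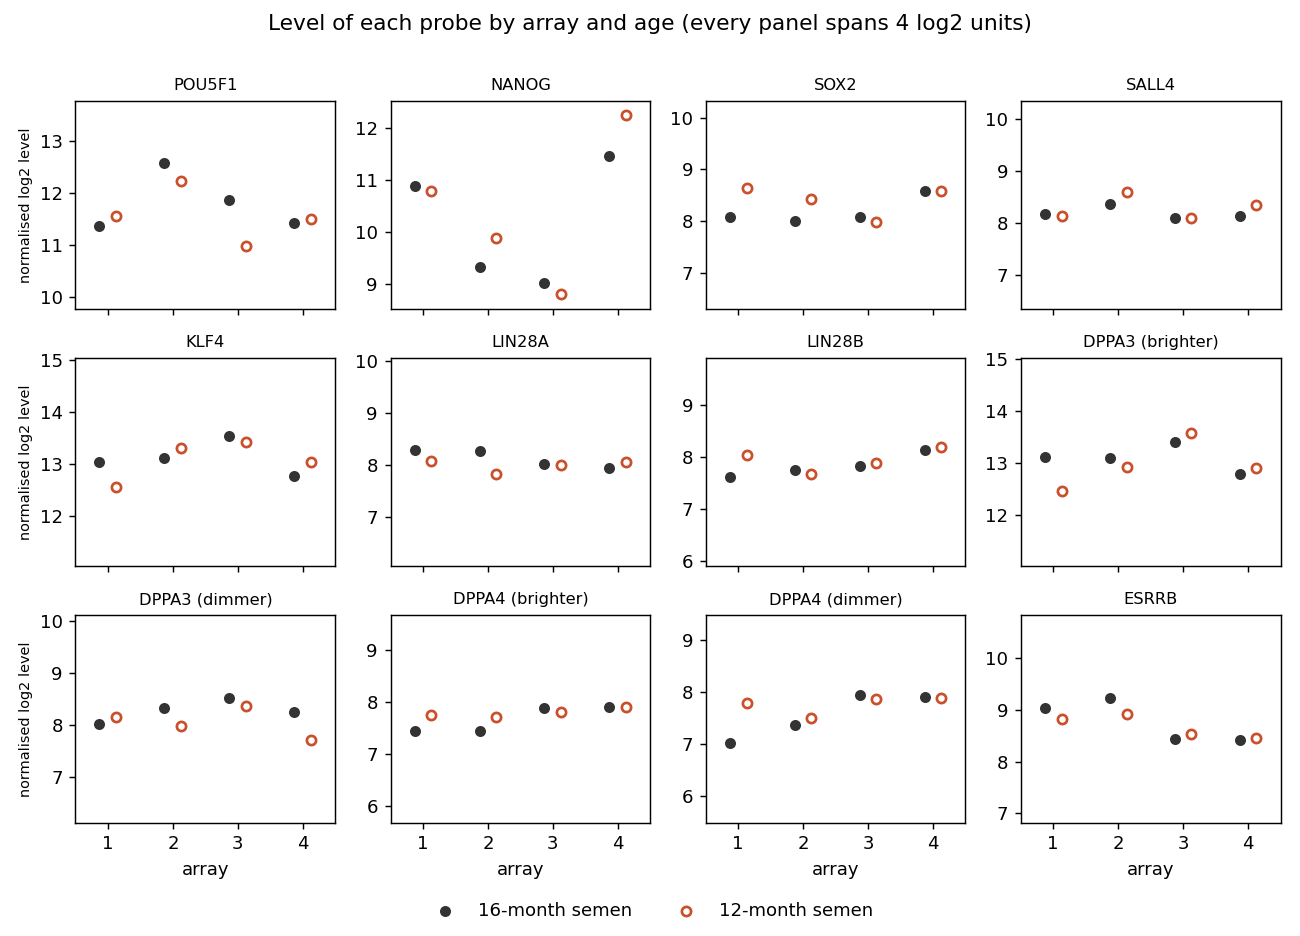
Normalised log2 level of each probe on arrays 1 to 4 for 16-month semen (filled, left) and 12-month semen (open, right), with every panel spanning the same 4 log2 units. In NANOG the 2 ages of an array differ by at most 0.79 while the arrays run from 8.80 to 12.25, and the other panels are flatter.

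**Figure D4:**
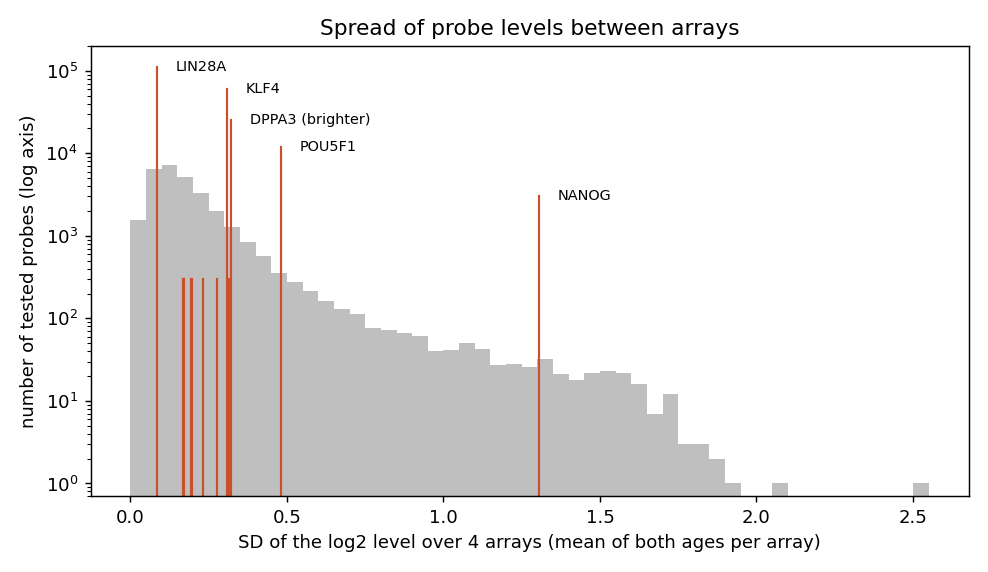
Number of tested probes (log axis) by the SD of their log2 level over the 4 arrays, with both ages of an array averaged. Red lines mark the 12 probes of the pluripotency factors (line height has no meaning, and 5 are named), with NANOG at 1.30 in the right tail.

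The named genes whose levels moved over arrays most like those of NANOG were led by a trophoblast enzyme. Likeness was the root mean square distance between log2 levels over 4 arrays after removal of each gene's mean, among 11171 genes, and it was added after the spread of NANOG had been seen. The 5 nearest were CYP11A1, PRPH, PAG2, HDLBP and TFAP2A, at distances of 0.35 to 0.45. CYP11A1, which makes pregnenolone from cholesterol, had log2 levels of 10.84, 8.91, 8.35 and 10.91 on arrays 1 to 4. PAG2, a pregnancy-associated glycoprotein of the trophoblast, stood at 9.96, 9.13, 8.97 and 10.95, and TFAP2A, a trophectoderm transcription factor, at 9.85, 8.63, 8.15 and 9.92. That these genes order the arrays much as NANOG does follows from how they were chosen. Over all 16 trophectoderm markers the mean log2 level was 10.53, 10.12, 10.14 and 10.94 with 16-month semen and 10.83, 10.57, 9.80 and 11.02 with 12-month semen. The log2 of their summed level was 16.56, 16.62, 16.83 and 17.27 with 16-month semen and 17.12, 17.07, 16.07 and 17.00 with 12-month semen. The 16 markers include CYP11A1, PAG2 and TFAP2A, so part of any likeness of their mean to NANOG follows from that same choice. By the mean, the 12-month order of the arrays was that of NANOG. The 16-month order differed from it only in arrays 2 and 3, at 10.12 and 10.14. By the sum the order differed at both ages, with array 1 lowest with 16-month semen and array 2 above array 4 with 12-month semen. The sum gives most weight to bright markers. KRT8 was the brightest of the 16, with mean log2 levels of 15.28 with 16-month and 15.22 with 12-month semen. Its ratios of 12 over 16 months were above 0 on arrays 1 and 2 and below 0 on arrays 3 and 4, where the dyes were exchanged. Their SD was 1.44, beside a median of 0.34 for the list. The part of KRT8 and of the dyes in the order of the sums was not tested. Of the markers, 14 of 16 exceeded the negative control level in all 8 signals. The part of trophectoderm content in the NANOG values was not tested.

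SALL4, a zinc finger factor that recruits the NuRD corepressor, had the most even ratios of the 12 probes. Its log2 levels were 8.18, 8.36, 8.10 and 8.13 with 16-month semen, and 8.14, 8.61, 8.11 and 8.34 with 12-month semen. For this gene the ratios of 12 over 16 months were -0.034, 0.25, 0.0099 and 0.21, a mean of 0.11 ± 0.14 (SD, n = 4; adjusted p = 0.843 in limma). The 12-month level was higher on 3 of 4 arrays. With median centring the mean turned to -0.059, where the median of all tested probes stood at -0.14.

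KLF4, a zinc finger factor used in reprogramming to pluripotency, differed little between the ages on average. Its log2 levels were 13.03, 13.11, 13.53 and 12.77 with 16-month semen, and 12.54, 13.30, 13.42 and 13.03 with 12-month semen. Ratios of 12 over 16 months were -0.49, 0.19, -0.11 and 0.25, a mean of -0.040 ± 0.34 (SD, n = 4; adjusted p = 0.962 in limma). Array 1 alone was far below 0, and without it the estimate was 0.13. Without array 3 it was 0.051. With median centring it was -0.51 (adjusted p = 0.114 in limma), where the median of all tested probes stood at -0.14.

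ESRRB, an orphan nuclear receptor of the naive pluripotency network in the mouse, split by array pair in both groups. Its log2 levels were 9.03, 9.22, 8.45 and 8.42 with 16-month semen, and 8.83, 8.93, 8.54 and 8.45 with 12-month semen. The ratios of 12 over 16 months were -0.20, -0.29, 0.096 and 0.030, a mean of -0.092 ± 0.19 (SD, n = 4; adjusted p = 0.844 in limma). The 16-month level was higher on the arrays that held it in Cy3, and the dye effect was -0.16 for Cy5 over Cy3 (adjusted p = 0.530).

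LIN28A and LIN28B bind RNA and block the maturation of the let-7 microRNAs, which push cells toward differentiation. LIN28A had log2 levels of 8.29, 8.26, 8.01 and 7.94 with 16-month semen, and 8.07, 7.83, 7.99 and 8.05 with 12-month semen. Its ratios of 12 over 16 months were -0.22, -0.44, -0.019 and 0.11, so the 16-month level was higher on 3 of 4 arrays. LIN28B had log2 levels of 7.62, 7.75, 7.84 and 8.14 with 16-month semen, and 8.04, 7.68, 7.88 and 8.19 with 12-month semen. Its ratios were 0.42, -0.064, 0.042 and 0.056, so the 12-month level was higher on 3 of 4 arrays. The LIN28B mean turned to -0.050 under median centring, where the median of all tested probes stood at -0.14. The means were -0.14 ± 0.24 for LIN28A (adjusted p = 0.824 in limma) and 0.11 ± 0.21 for LIN28B (0.849), with n = 4 each. The opposite signs of the paralogs were not tested against each other, and each interval included 0.

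DPPA3 (STELLA), a maternal factor that guards DNA methylation in the early embryo of the mouse, had a pair of probes that did not move together. The brighter probe had log2 levels of 13.11, 13.09, 13.40 and 12.79 with 16-month semen, and 12.45, 12.93, 13.58 and 12.90 with 12-month semen. The dimmer probe had 8.02, 8.33, 8.52 and 8.25 with 16-month semen, and 8.16, 7.97, 8.36 and 7.70 with 12-month semen. The ratios of 12 over 16 months were -0.65, -0.17, 0.18 and 0.12 at the brighter probe and 0.14, -0.36, -0.16 and -0.54 at the dimmer one. They shared a sign on 1 of 4 arrays. The means were -0.13 ± 0.38 and -0.23 ± 0.29 (SD, n = 4; adjusted p = 0.837 and 0.823 in limma). Without array 1 the brighter probe stood at -0.0091 and without array 2 at -0.25. The dimmer probe ran from -0.11 without array 2 to -0.35 without array 1. The difference between the probes averaged 0.10 ± 0.62 (brighter minus dimmer), with an exact sign-flip p of 0.75.

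DPPA4, a chromatin protein that acts with DPPA2, also had a pair of probes. The brighter probe had log2 levels of 7.45, 7.44, 7.90 and 7.90 with 16-month semen, and 7.75, 7.72, 7.82 and 7.91 with 12-month semen. The dimmer probe had 7.03, 7.37, 7.94 and 7.90 with 16-month semen, and 7.79, 7.49, 7.86 and 7.89 with 12-month semen. The ratios of 12 over 16 months were 0.30, 0.28, -0.078 and 0.0081 at the brighter probe and 0.76, 0.12, -0.075 and -0.0063 at the dimmer one. The probes shared a sign on 3 of 4 arrays. On arrays 1 and 2, which gave the largest ratios, the 16-month signal of the dimmer probe was below the negative control level, so its ratios there are set against background. The means were 0.13 ± 0.19 and 0.20 ± 0.38 (SD, n = 4, adjusted p = 0.824 for each in limma). Median centring turned the brighter one to -0.015, where the median of all tested probes stood at -0.14. The dimmer probe stood at 0.040 without array 1 and at 0.36 without array 2.

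For 4 of the 12 probes the sign of the ratio split by dye orientation. SOX2 and the dimmer DPPA4 probe were above 0 on arrays 1 and 2 and below 0 on arrays 3 and 4, a pattern of 10.3% of all probes measured on every array. The brighter DPPA3 probe and ESRRB showed the mirror image, as did 9.97% of those probes. No dye effect of the 12 passed an adjusted p of 0.05 in limma (smallest 0.387), and 0% of all tested probes did. The probes also varied somewhat more over arrays than most. Their median SD of the ratio was 0.31, beside 0.21 over all probes measured on every array. Taken by 1 probe per gene, it was 0.28 for the 10 genes and 0.22 over all 11963 genes. For the trophectoderm markers it was 0.34, for the NuRD subunits 0.29 and for the other gene lists 0.18 to 0.23. On array 4 the ratio was above 0 for 9 of the 10 genes, each taken by its brighter probe, against 4, 5 and 4 genes on arrays 1 to 3. Of all 11963 genes, 5814, 6413, 5491 and 5987 were above 0 on arrays 1 to 4. The median ratio of the 10 genes was -0.073, 0.064, -0.048 and 0.096 on arrays 1 to 4, and 0.035 by the means over arrays, beside 0.00043 over all 11963 genes.

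Genes whose ratios lay nearest to those of the core factors over 4 arrays were read from the same 11171 genes by root mean square distance. For SOX2 they were ELOVL2, an elongase of polyunsaturated fatty acids, CDH2 (N-cadherin) and PACRGL, at 0.022, 0.034 and 0.043. For NANOG they were DNAJC5, TMEM97 and RABGAP1L, at 0.10 to 0.11, and for POU5F1 SPIRE2, SREBF1 and CTSA, at 0.10 to 0.12. With 4 values per gene such neighbours are a description.

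Other genes of the pluripotency network lay on both sides of 0. Of 34 listed genes 27 had a probe and 23 were tested, with 13 above 0, 10 below 0 and a median ratio of 12 over 16 months of 0.044. None passed the adjusted threshold, and 1, SALL1, stood at an unadjusted p under 0.05 in limma. SALL1, a relative of SALL4, had ratios of 0.47, 0.36, 0.011 and 0.013, a mean of 0.21 ± 0.24 (SD, n = 4; adjusted p = 0.821). KLF5, a factor of both trophectoderm and inner cell mass, was below 0 on all 4 arrays, with ratios of -0.17, -0.11, -0.078 and -0.23 and a mean of -0.15 ± 0.069 (adjusted p = 0.823). DPPA2, the partner of DPPA4, had ratios of 0.42, 0.17, -0.0089 and 0.0060, also largest on arrays 1 and 2. In all, 3 of the 23 kept 1 sign on 4 arrays, beside 1266 of all 11963 genes. Of those genes 5993 were above 0 and 5970 below, and 753 stood at an unadjusted p under 0.05 in limma.

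The partners of single members gave 0 genes past the adjusted threshold as well. Of 16 tested genes of the LIN28 and let-7 pathway 5 were above 0 and 11 below, with a median of -0.045 and 0 at an unadjusted p under 0.05 in limma. TUT7, a uridylyl transferase that LIN28 directs to let-7 precursors, was below 0 on 4 of 4 arrays, from -0.049 to -0.15. Of 11 NuRD subunits 7 were above 0 and 4 below, with a median of 0.025 and 0 at an unadjusted p under 0.05. Of 14 coactivators of OCT4 and ESRRB 9 were above 0 and 5 below, with a median of 0.023 and 2 at an unadjusted p under 0.05. Those 2 were SMARCB1 and NCOA3, a coactivator that binds ESRRB in the mouse, with a mean of -0.22 ± 0.13 and 1 sign on all 4 arrays, named after its values were seen. The chromatin remodeller subunit SMARCB1 had a mean of -0.25 ± 0.15 (adjusted p = 0.821 in limma) and the nuclear receptor coactivator NCOA1, with an unadjusted p of 0.0944, a mean of 0.24 ± 0.31 (adjusted p = 0.821), each with 1 sign on all 4 arrays.

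Markers of the other blastocyst lineages gave 0 calls too. Of 16 trophectoderm markers 12 were above 0 and 4 below, with a median of 0.037 and array medians of 0.12, 0.28, -0.20 and 0.15. Of 14 primitive endoderm markers 5 were above 0 and 9 below, with a median of -0.069. COL4A1, a basement membrane collagen, was below 0 on all 4 arrays, with a mean of -0.35 ± 0.15. In limma 2 of each list stood at an unadjusted p under 0.05 and 0 passed the adjusted threshold. These were CYP11A1 (0.62 ± 0.72) and PAG12 (0.56 ± 0.50) of the trophectoderm list, and LAMA1 (-0.64 ± 0.58) and COL4A1 of the other. Over all 11963 genes 5993 were above 0, 753 stood at an unadjusted p under 0.05 and 0 passed the adjusted threshold. Of the 6 tested cumulus and granulosa markers 5 were above 0, with a median of 0.13 and 2 at an unadjusted p under 0.05, and of 9 sperm and spermatid markers 5 were, with a median of 0.038. One sign on all 4 arrays was kept by STAR, the cholesterol carrier of steroid-making cells, at -0.29 ± 0.18, and by DKKL1, a spermatid protein, at 0.25 ± 0.22. STAR was the 1 cumulus marker below 0. HSD3B1, the other cumulus marker at an unadjusted p under 0.05 in limma, lay the other way, at 0.73 ± 0.70. The log2 of the summed level of the cumulus list ran from 10.76 to 11.22 with 16-month semen and from 10.64 to 11.46 with 12-month semen. The part of these lists in the ratios of the pluripotency factors was not tested.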

How the data were processed

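Per the labels' protocols, total RNA of blastocysts was amplified linearly and labelled chemically with Cy3 or Cy5. The scanner files were deposited as raw intensity values, per the file headers, for every spot and for its local background in both dyes. The authors' deposited value table holds a log2 ratio per probe and array, and the submitters' processing notes name limma. Each column tracked its array, as log2 of Cy5 over Cy3 (r across tested probes 0.855 to 0.988, at most 0.318 with another array), with medians of -0.016 to -0.0019. Its background step stays unknown, and it served as an alternative.

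Median intensities were corrected with normexp (offset 50), and each array was loess normalised, with weight 0 for controls. Spots marked as ignored were left out (10 to 818 per array, and no spot of the 12 probes). A probe was tested when it exceeded the negative control level in at least 4 of 8 channel signals. Ratios were fitted in limma 3.58.1 (R 4.3.3) with terms for age and dye, two-sided. Levels are log2 channel values after a quantile step on average brightness, and no probe's level was set against another's. The procedure was run on simulated data with independent noise and added age differences larger in size than the means of the 12 probes. That run does not measure the power to see differences as small as theirs. The number of arrays limits the precision.

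The platform annotation gives 21790 probes 1 symbol and 22004 none. Of the named probes 20025 had a current RefSeq symbol, 1524 were updated by synonym and 241 kept their name. A gene was represented by its brightest tested probe that was measured on all 4 arrays, and a gene without one was not counted as tested. Members and lists were chosen with earlier results of these data known. From each further list the text names up to 2 genes with 1 sign on all 4 arrays, by size. DPPA2, NCOA3, CYP11A1, PAG12, LAMA1 and HSD3B1 were named after their values were seen, as were the lists' genes of the level comparison. No probe sequence or genome was used here.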

Additional observations from a re-analysis of the deposited data

Results flagged for a closer look

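Of 36 sets of 4 values (the ratio and the level at each age for 12 probes), 1 held an array far from the others. SOX2 with 16-month semen stood at 8.59 on array 4, against 8.02 to 8.08 on the other arrays. The gap made up 0.880 of the whole range, above Dixon's 95% critical value for 4 samples. Chance flags about 1 in 20 such sets. The 12-month level of SOX2 on array 4 was 8.58.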

How the results depend on the processing

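Each probe's ratio was recomputed under 12 alternatives, which gave 143 values, since the dimmer DPPA4 probe left when all 8 signals had to exceed the negative control level. Of these, 134 kept their sign and stayed short of the threshold and 9 changed sign. No member probe was called under any of the 12. Median centring in place of loess moved the median of all tested probes to -0.14 and that of the 10 genes to -0.20. It turned NANOG to -0.13, SALL4 to -0.059, LIN28B to -0.050 and the brighter DPPA4 probe to -0.015, and the brighter DPPA3 probe came nearest to the threshold (-0.60, adjusted p = 0.0646 in limma, with 0.0646 to 1.00 over its alternatives). Leaving out 1 array at a time gave KLF4 -0.21 to 0.13 (above 0 without array 1 or, at 0.051, array 3), LIN28B -0.0077 (without array 1) to 0.23, POU5F1 -0.48 to 0.0014 (without array 3) and NANOG -7.64e-06 (without array 4) to 0.50. The brighter DPPA3 probe ran from -0.25 to -0.0091, the dimmer from -0.35 to -0.11, and the dimmer DPPA4 probe from 0.040 to 0.36. SOX2 kept its sign, from 0.037 (median centring) to 0.26 (without array 2). The cause was not tested. Over all probes, leaving out 1 array called 0 to 27, with 24 without array 3 and 27 without array 4, none of them a member. The median of the 10 genes then ran from -0.029 to 0.060. Leaving out an array leaves 1 array in a dye orientation, assumed to vary like the others. Every ratio already pairs both ages within an array, and a further replicate block could not be fitted, since each array gives 1 ratio. With the platform symbols as written, 11 probes remained. Alternatives for the spread of NANOG between arrays were chosen after seeing the data and gave an SD of 1.22 to 1.31, and 0.98 to 1.54 without 1 array, with 0.0592% to 1.77% of probes at least as variable. For POU5F1 the SD was 0.029 without array 2.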
